A study of Mus musculus with 13 samples.

Results

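Acpp, Art4, Dhrs7, Ebf1, Fbxo17, Nup210l and Tekt5 are 7 mouse genes that the study drew as changed in the same direction by loss of Sox2 in tumors of the oral mucosa and of the pancreas. They were looked up by symbol in the count table and are 7 of its 55332 genes with values. They were selected on their measured change between KO and WT tumors, so those values are given below as a description, without a test. Tests were made on what the choice did not use, which is the difference between oral and pancreatic tumors of the same genotype, and the genes related to each member.

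NUT carcinoma is an aggressive squamous carcinoma driven by fusions of NUTM1, and Sox2, a transcription factor of stem and basal epithelial cells, has been discussed as one of its downstream factors. Bulk RNA-seq was made on 13 mouse NUT carcinomas (mNC), which all carry 1 NCT allele (NCT+/-), through which Cre recombinase starts the tumors. The 4 oral WT tumors carry KRT14-Cre, active in basal squamous epithelium, and the 2 oral KO tumors also carry Sox2fl/fl, with a Cre that their labels spell KRT4Cre. The study names KRT14-Cre for the oral Sox2 KO mice as well. The 4 pancreatic WT tumors carry Pdx1-Cre, active in pancreatic progenitors, and the 3 pancreatic KO tumors carry Pdx1-Cre with a Sox2 genotype that the labels write Sox2fl; fl. Age is not given in the sources used here, nor is whether each tumor is from a separate mouse, so the tests measure the spread between tumors, which may in part be technical.

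Levels are given as CPM, the estimated counts per 1000000 counts of a library after TMM scaling. Sox2 was at 9.04 to 19.7 CPM in the oral WT tumors, 29.1 to 34.1 CPM in the pancreatic WT tumors and at most 0.0390 CPM in any KO tumor. Library totals were 11735315 and 20432164 in the oral KO tumors, 29394258 to 40420228 in the oral WT, 40964533 to 46134830 in the pancreatic WT and between 89562790 and 120482829 in pancreatic KO tumors. Depth thus went with genotype in both tissues. In oral KO tumor 1 the protein-coding share of counts was 59.5%, and it was 84.5 to 91.7% elsewhere, and skeletal muscle genes summed to 2935 and 5055 CPM in the oral KO tumors against 3.75 to 443 CPM in the oral WT. Basal keratinocyte genes were detected in every tumor, with sums of 3245 to 14401 CPM. Suprabasal keratinocyte genes summed to 2776 to 5716 CPM in the pancreatic WT and 379 to 656 CPM in the pancreatic KO tumors. In the oral tumors their sums overlapped between the genotypes. The part of depth, RNA quality, muscle and suprabasal cells in the values below was not tested, except where a value without the tumor is given.

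The 7 genes have unlike roles. Acpp encodes prostatic acid phosphatase, whose membrane form hydrolyses extracellular AMP to adenosine. Dhrs7 is a short-chain dehydrogenase/reductase of the endoplasmic reticulum that acts on steroids and retinoids. Art4 is a membrane-anchored member of the ADP-ribosyltransferase family and carries the Dombrock blood group antigens on red cells. Fbxo17 is an F-box protein, a substrate receptor of SCF ubiquitin ligases. Tekt5 is a tektin, a filament protein of ciliary and flagellar microtubules known from sperm. Ebf1 is the early B-cell factor, a transcription factor of the B lineage, of adipocyte precursors and of other mesenchymal cells. Nup210l is a relative of the nuclear pore membrane glycoprotein Nup210 and is best known from the testis.

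All 7 are protein-coding genes on 7 different chromosomes. On GRCm38 with GENCODE M21 they are Acpp (chr9:104288251-104337748, minus strand), Dhrs7 (chr12:72650353-72664909, minus), Art4 (chr6:136848451-136857733, minus), Fbxo17 (chr7:28716804-28738144, plus), Tekt5 (chr16:10357948-10395490, minus), Ebf1 (chr11:44617317-45008091, plus) and Nup210l (chr3:90104132-90212048, plus). Nup210l shares its chromosome with Sox2 and lies 55.452 Mb from it. Of the 31-base sequences of their transcripts, none of those of Art4, Nup210l and Tekt5 occurred in another gene, and the share was 0.552% for Ebf1, 1.31% for Acpp, 1.75% for Fbxo17 and 5.80% for Dhrs7.

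Since Sox2 was lost in the KO tumors, the stretch before their start sites was searched for 2 core motifs of the Sox family, ACAAAG and ACAATG, on both strands in the 250 bases before each RefSeq start (GRCm38.p6). Of the 7 members, 6 had an entry, with 8 start sites in all, and Nup210l had none. Tekt5 was the 1 member with a match, holding ACAAAG 87 bases before its start on its own strand and 151 bases before it on the other strand, where it reads CTTTGT. Either motif occurs in 25.2% of all 32851 promoters of the same length, ACAAAG in 16.5% and ACAATG in 10.7%, so 1 member of 6 is not above the background. The bases upstream of the annotated exons are shown for 5 of the members, 5′ to 3′ on the strand of the gene, with the motif in capitals where there is one; they let the Tekt5 match be set beside members that moved the same way without it (Acpp, Dhrs7, Fbxo17) and beside Ebf1, which moved the other way.
Tekt5, chr16:10395491-10395705, minus strand: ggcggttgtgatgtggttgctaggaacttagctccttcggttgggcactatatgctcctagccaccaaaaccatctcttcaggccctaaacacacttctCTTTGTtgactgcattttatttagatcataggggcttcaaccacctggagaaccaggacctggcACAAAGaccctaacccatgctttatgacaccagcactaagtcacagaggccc
Acpp, chr9:104337749-104337972, minus strand: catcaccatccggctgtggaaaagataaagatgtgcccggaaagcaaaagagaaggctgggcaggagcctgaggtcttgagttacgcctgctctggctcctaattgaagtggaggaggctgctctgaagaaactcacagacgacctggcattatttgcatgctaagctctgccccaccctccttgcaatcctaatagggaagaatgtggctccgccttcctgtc
Dhrs7, chr12:72664910-72665078, minus strand: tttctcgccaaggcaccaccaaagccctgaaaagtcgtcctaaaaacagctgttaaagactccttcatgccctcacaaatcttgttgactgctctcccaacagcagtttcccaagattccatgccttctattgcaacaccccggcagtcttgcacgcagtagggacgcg
Fbxo17, chr7:28716540-28716789, plus strand: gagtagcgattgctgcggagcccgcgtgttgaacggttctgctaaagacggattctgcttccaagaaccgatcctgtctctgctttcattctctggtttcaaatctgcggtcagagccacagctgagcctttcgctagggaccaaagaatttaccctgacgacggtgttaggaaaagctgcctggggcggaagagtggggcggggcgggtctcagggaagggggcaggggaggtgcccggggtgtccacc
Ebf1, chr11:44619978-44620227, plus strand, before its second start and between exons of the longer transcripts: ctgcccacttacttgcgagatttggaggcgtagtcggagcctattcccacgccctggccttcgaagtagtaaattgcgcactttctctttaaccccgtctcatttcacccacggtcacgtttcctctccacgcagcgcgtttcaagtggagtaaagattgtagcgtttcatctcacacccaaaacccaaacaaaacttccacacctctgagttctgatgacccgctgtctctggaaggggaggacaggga
A match is a run of letters and not a measured binding site, and a window without one says nothing of binding elsewhere in the gene.

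All 7 members separated KO from WT tumors in both tissues, with every KO tumor on 1 side of every WT tumor: Acpp, Dhrs7, Art4, Fbxo17 and Tekt5 lower, Ebf1 and Nup210l higher. Among all genes tested, such a separation held for 48.0% in the oral tumors (2 KO against 4 WT), for 15.6% in the pancreatic tumors (3 KO against 4 WT) and for 4.12% on the same side in both. By direction, KO tumors were all above in 22.4%, 6.8% and 1.29% and all below in 25.5%, 8.75% and 2.83%, and a log2 fold change beyond 1 in the same direction in both tissues was seen for 2.25%. Without either oral KO tumor all 7 members still separated in the oral tumors. That had to be so, since leaving out a tumor cannot bring an overlap, and it is no check of the separation. The members were chosen for a change between KO and WT tumors in both tissues, which favors such a separation, so the count is not a finding. The smallest absolute log2 fold change was that of Dhrs7 in the oral tumors (-1.19) and that of Ebf1 in the pancreatic tumors (1.27).

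For genes that are no members, a call of higher or lower stands for an edgeR adjusted p below 0.05 with a log2 fold change beyond 1 in size. Between KO and WT it was given to 11.7% of all genes in the oral tumors (8.81% higher, 2.89% lower) and to 0.629% in the pancreatic tumors (0.337% higher, 0.292% lower). The oral share rested on the fit: 1968 genes were called higher and 646 lower, but 19 and 8 among protein-coding genes alone, 43 and 27 without oral WT tumor 1, 19 and 17 without oral WT tumor 2, 912 and 302 without oral WT tumor 3, 25 and 23 without oral KO tumor 1 and 97 and 31 without oral KO tumor 2. In the pancreas 83 genes were called higher and 72 lower, or 394 and 717 by DESeq2, 3 and 7 among protein-coding genes alone and 100 and 169 without pancreatic WT tumor 4. Without any other 1 of the 7 pancreatic tumors, 25 to 47 were called higher and 14 to 25 lower.

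**Figure D1:**
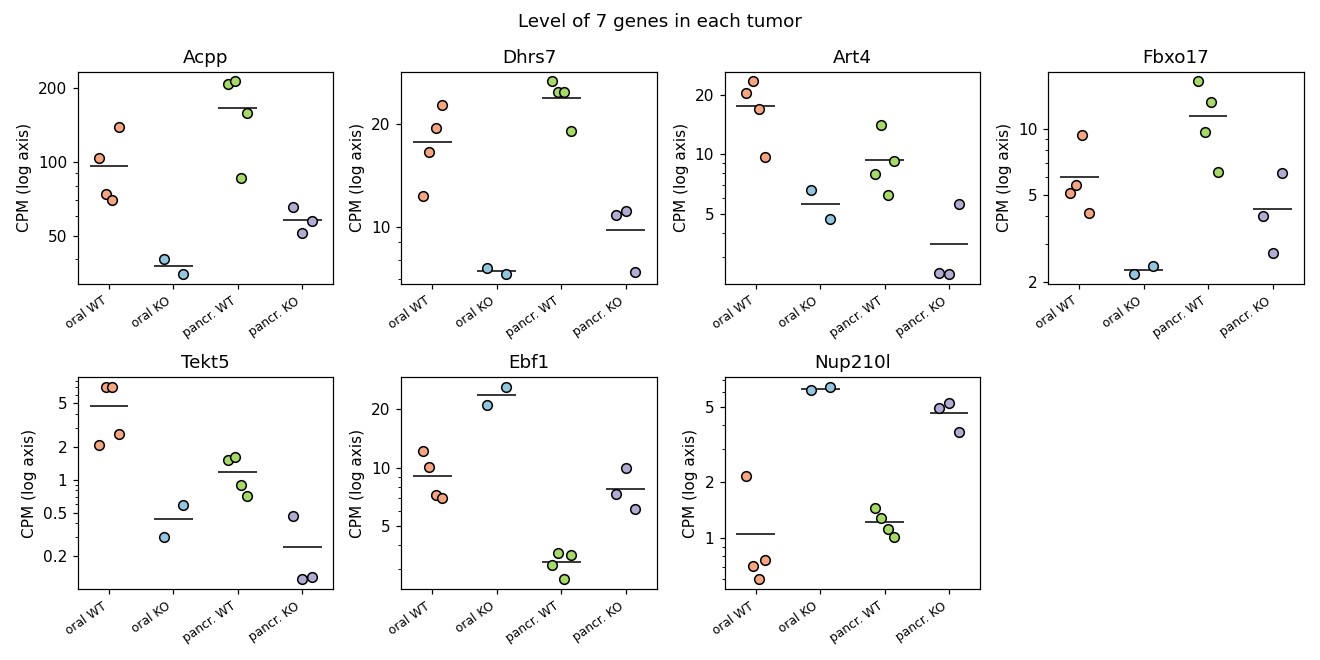
Level of each of the 7 genes in every tumor, in CPM on a log axis. Points are the 13 tumors, grouped by tissue and genotype, and lines are group means. In each tissue the KO points of 5 genes lie below and those of Ebf1 and Nup210l above all WT points.

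Acpp was the most abundant member in every group, also per kilobase of exon (5.12 to 22.6 CPM per kb). Its level was 103, 73.7, 69.6 and 138 CPM in the oral WT tumors and 40.2 and 34.9 CPM in the oral KO tumors. The pancreatic WT tumors had 207, 212, 86.0 and 157 CPM and the pancreatic KO tumors 65.4, 51.1 and 57.6 CPM. The KO tumors lay close together and below the lowest WT tumor, by 29.4 CPM in the oral and 20.6 CPM in the pancreatic tumors, while the WT tumors of a tissue spread over a wide range. The log2 fold change of KO over WT was -1.28 (SE 0.32) in the oral and -1.50 (SE 0.31) in the pancreatic tumors.

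Dhrs7 had the smallest fold changes of the lowered genes. Oral WT tumors had 12.3, 16.5, 19.5 and 22.8 CPM, and oral KO tumors 7.54 and 7.25 CPM. In the pancreas it was at 26.7, 24.8, 24.8 and 19.1 CPM in the WT and 10.8, 11.1 and 7.36 CPM in the KO tumors. KO tumors of both tissues thus fell below every WT tumor of their own tissue, by 4.72 and 8.04 CPM. The log2 fold changes were -1.19 (SE 0.32) and -1.28 (SE 0.19). The gene nearest to it, Gm4756, lies 0.692 kb downstream on the same strand and shares 1.32% of the 31-base sequences of Dhrs7, but was at 0.702 CPM or less in every tumor.

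Art4 was measured at 20.5, 23.4, 17.0 and 9.62 CPM in oral WT and 6.55 and 4.68 CPM in oral KO tumors. Pancreatic WT tumors held 7.92, 14.1, 6.24 and 9.29 CPM and pancreatic KO tumors 2.48, 2.47 and 5.60 CPM. The highest pancreatic KO tumor, number 3, came within 0.647 CPM of the lowest WT tumor, and the others lay well below. Fitted log2 fold changes were -1.57 (SE 0.42) in the oral and -1.40 (SE 0.41) in the pancreatic tumors.

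Fbxo17 had the narrowest separation of the members in the pancreas. Oral tumors had 5.07, 5.57, 9.34 and 4.16 CPM with Sox2 and 2.18 and 2.38 CPM without it. Pancreatic levels were 16.4, 9.68, 13.2 and 6.36 CPM in the WT and 3.99, 2.71 and 6.26 CPM in the KO tumors. Pancreatic KO tumor 3 and WT tumor 4 were 0.0939 CPM apart, and the exact Poisson 95% intervals of their counts, which cover counting error only, overlapped (5.82 to 6.74 and 5.61 to 7.18 CPM). The log2 fold changes were -1.33 (SE 0.45) in the oral and -1.38 (SE 0.40) in the pancreatic tumors.

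Tekt5 showed the largest fold change of the lowered genes and rested on the fewest counts. The oral WT tumors had 2.07, 7.11, 7.03 and 2.62 CPM, and the oral KO tumors had 0.298 and 0.585 CPM, from 3 and 15 counts. The pancreatic WT tumors had 1.52, 1.61, 0.889 and 0.715 CPM, and the pancreatic KO tumors had 0.472, 0.123 and 0.130 CPM, from 54, 11 and 15 counts. No KO tumor reached the level of a WT tumor of its tissue. Log2 fold changes were -3.27 (SE 0.77) and -2.27 (SE 0.59), and the second was -3.18 without pancreatic KO tumor 1. Of the motile cilium genes, 5 of 6 were found by symbol, and they summed to 3.93 to 16.7, 1.09 to 6.04, 1.78 to 6.04 and 3.81 to 6.89 CPM in the oral WT, oral KO, pancreatic WT and pancreatic KO tumors, with none called in either tissue. The 6 spermatid genes summed to 0.123 CPM or less in every tumor.

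Ebf1 was higher in KO tumors. Oral WT tumors held 12.1, 10.03, 7.25 and 6.96 CPM and oral KO tumors 21.0 and 26.1 CPM. Pancreatic levels were 3.15, 3.62, 2.67 and 3.57 CPM in the WT and 7.33, 9.99 and 6.12 CPM in the KO tumors. Both groups of KO tumors lay clear of their WT tumors, and the pancreatic KO tumors overlapped in level with the oral WT tumors. KO over WT, the log2 fold changes were 1.45 (SE 0.29) and 1.27 (SE 0.24).

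Ebf1 marks several cell types that a bulk tumor can hold, and fewer cells of a type cannot be told apart from less RNA per cell in such samples. The 6 B lymphocyte genes summed to 1.07 to 4.56 CPM over all 13 tumors. Their sums were at most 4.56 CPM in the oral, 3.59 CPM in the pancreatic WT and 2.35 CPM in the pancreatic KO tumors. None of these genes was called in either tissue. Adipocyte genes summed to 102 to 578 CPM in the oral WT, 254 and 276 in the oral KO, 1481 to 2962 in the pancreatic WT and 522 to 2273 in the pancreatic KO tumors. Nearly all of these sums was Fabp4, with means of 374, 264, 2304 and 1196 CPM in the same order. Adipoq, Plin1, Cidec and Lep were at 0.975 CPM or less in every tumor and Pparg at 7.98 CPM or less. Pericyte genes summed to 297 to 507 CPM with all groups overlapping, and no adipocyte or pericyte gene was called. Fibroblast genes summed to 6670 to 14289 CPM in the oral WT, 7117 and 7130 in the oral KO, 844 to 1666 in the pancreatic WT and 1563 to 2701 CPM in the pancreatic KO tumors. Over the 5 fibroblast genes the median log2 fold change was -0.39 in the oral and 0.68 in the pancreatic tumors. Pdgfra, Col1a1 and Col3a1 were not called. Their means were 65.7, 4247 and 3139 CPM in the oral WT and 47.4, 4496 and 2410 CPM in the oral KO tumors. Dcn (log2 fold change -3.40, adjusted p = 0.0196) and Lum (-2.09, 0.0347) fell in the oral KO tumors by edgeR, and none of the 5 was called in the pancreas. Both oral calls were lost among protein-coding genes alone (adjusted p = 0.0595 for Dcn and 0.0800 for Lum), without oral WT tumor 1 (0.0510 and 0.0663) and without oral WT tumor 2 (0.0659 and 0.0818), and that of Lum also without oral WT tumor 3 (0.0687) or either oral KO tumor (0.0667 and 0.143). The part of these cells in the Ebf1 values was not tested.

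Nup210l had the larger rise of the raised genes. Levels of 2.14, 0.708, 0.602 and 0.758 CPM were found in oral WT and of 6.15 and 6.43 CPM in oral KO tumors. In the pancreas it was at 1.44, 1.27, 1.12 and 1.01 CPM in the WT and 4.98, 5.25 and 3.70 CPM in the KO tumors. WT tumors of both sites thus lay between 0.602 and 1.44 CPM, except oral WT tumor 1, which stood apart. The log2 fold changes were 2.65 (SE 0.56) in the oral and 1.95 (SE 0.25) in the pancreatic tumors, and the first was 3.27 without oral WT tumor 1. Its counts ran from 19 to 97 in the WT and from 62 to 570 in the KO tumors.

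**Figure D2:**
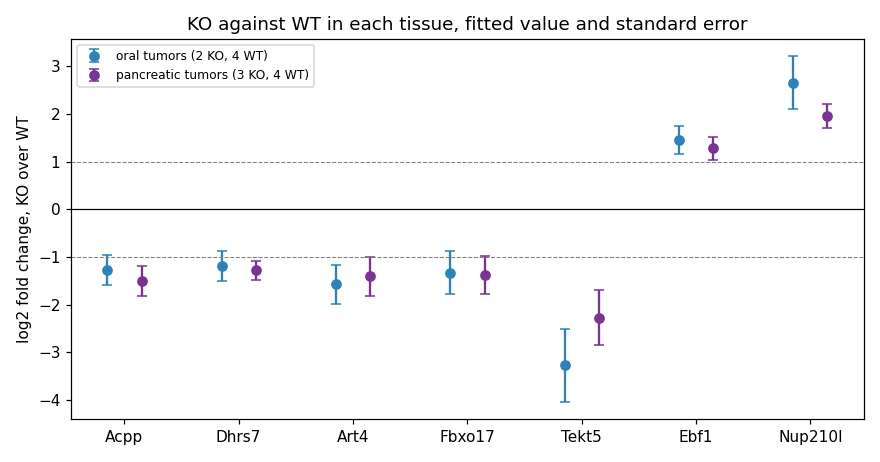
Log2 fold change of KO over WT for each gene, fitted with edgeR within each tissue (oral 2 KO and 4 WT, pancreatic 3 KO and 4 WT). Points are fitted values, bars are 1 SE and dashed lines mark 1 and -1; the fitted values lie between -3.27 and -1.19 for 5 genes and between 1.27 and 2.65 for Ebf1 and Nup210l.

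Per kilobase of exon, the order of the members changed with genotype. In the oral WT tumors it ran Acpp (13.1 CPM per kb), Art4 (7.01), Dhrs7 (5.02), Tekt5 (2.61), Fbxo17 (2.42), Ebf1 (0.932) and Nup210l (0.184), where the ranges of Art4, Dhrs7, Tekt5 and Fbxo17 overlapped each with the next. In the oral KO tumors Ebf1 (2.42) stood next to Acpp (5.12), its range overlapping that of Art4 (2.23), and Tekt5 (0.244) was last. In the pancreatic WT tumors the order was Acpp (22.6), Dhrs7 (6.74), Fbxo17 (4.57), Art4 (3.73), Tekt5 (0.655), Ebf1 (0.333) and Nup210l (0.212), with overlap from Dhrs7 to Fbxo17 and from Fbxo17 to Art4. In the pancreatic KO tumors Nup210l (0.812) and Ebf1 (0.801) overlapped, above Tekt5 (0.134).

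The comparison of pancreatic with oral tumors of the same genotype was not used to choose the members. Ebf1 was lower in pancreatic tumors in both genotypes, and Tekt5 was lower in pancreatic tumors among WT; the other members were not called. Among WT tumors (4 against 4), 2 of 7 members were called, both lower in the pancreas, where 16.5% of all 23164 genes tested were called (9.3% lower, 7.24% higher). Among KO tumors (3 against 2), 1 of 7 was called, where 25.2% of 24787 genes were (14.6% lower, 10.7% higher). These shares are near the background and say nothing particular about the members as a group. Over the members the median log2 fold change was 0.19 among WT and -0.39 among KO tumors, against -0.00 and 0.00 over all genes. The WT and the KO comparison share no tumor, but each shares its tumors with those that chose the members.

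For Ebf1 the log2 fold change of pancreatic over oral was -1.48 (SE 0.25) among WT tumors, with an edgeR adjusted p of 0.0040, and -1.54 (SE 0.29) among KO tumors, with an adjusted p of 0.0145. The levels did not overlap in either comparison, and oral tumors were 2.80-fold and 2.91-fold higher in the fits. Without oral KO tumor 2 the second was -1.41 with an adjusted p of 0.0577, and the call was lost. The fibroblast gene sums given above were also lower in pancreatic tumors, in both genotypes without overlap. Their part in the difference was not tested.

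For Tekt5 the log2 fold change among WT tumors was -1.99 (SE 0.50), with an edgeR adjusted p of 0.0200, and oral tumors were 3.96-fold higher. The call was lost without oral WT tumor 2 (-1.72, adjusted p = 0.0534) and without pancreatic WT tumor 3 (-1.87, adjusted p = 0.0611). Among KO tumors it was -0.88 (95% interval -2.46 to 0.71, edgeR adjusted p = 0.423), an interval that the 3 to 54 counts per tumor leave wide, and it was -1.86 without pancreatic KO tumor 1 and -0.27 without oral KO tumor 2. No test of the WT against the KO values is given, since it would use the KO against WT changes that chose the members.

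Of the members without a call, Acpp was higher in the pancreas by 0.78 (SE 0.32, edgeR adjusted p = 0.110) among WT tumors and by 0.68 (SE 0.18, adjusted p = 0.0349) among KO tumors, where the change stayed under the limit of 1 on the log2 scale. Fbxo17 stood at 0.92 (95% interval 0.24 to 1.61) and 0.98 (0.06 to 1.90), and Art4 at -0.91 (-1.55 to -0.28) and -0.61 (-1.58 to 0.36). Dhrs7 stood at 0.43 (0.02 to 0.83) and 0.45 (-0.14 to 1.04). Nup210l was the member with opposite signs, at 0.19 (-0.67 to 1.05) among WT and -0.39 (-1.003 to 0.23) among KO tumors, and the first was 0.80 (SE 0.31) without oral WT tumor 1. These intervals are from the fitted SE and are not adjusted for the number of genes. Leaving out 1 tumor brought a call for Acpp (without oral WT 4, 1.01, adjusted p = 0.0440), for Art4 (without oral WT 4, -1.12, adjusted p = 0.0195, or without pancreatic WT 2, -1.17, adjusted p = 0.0396) and for Fbxo17 (without oral WT 3, 1.21, adjusted p = 0.0391, or without pancreatic WT 4, 1.09, adjusted p = 0.0492), all by edgeR among WT tumors.

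**Figure D3:**
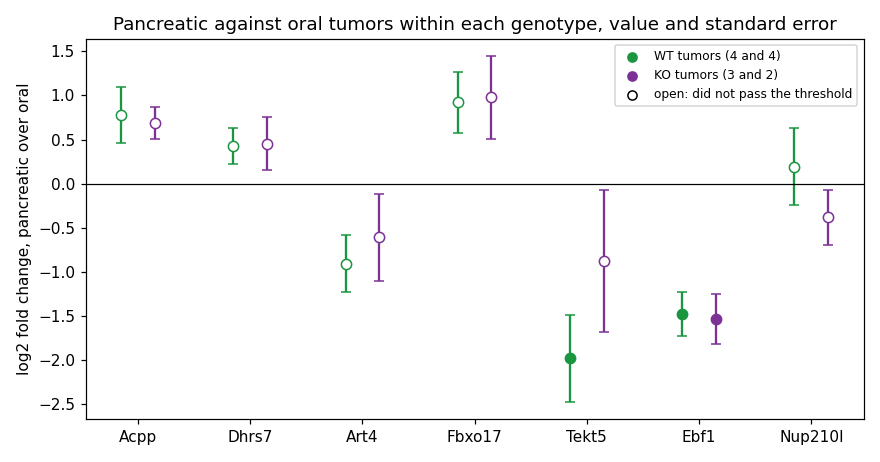
Log2 fold change of pancreatic over oral tumors for each gene, fitted with edgeR among WT tumors (4 against 4) and among KO tumors (3 pancreatic against 2 oral). Points are fitted values and bars are 1 SE. Ebf1 lies at -1.48 among WT and -1.54 among KO tumors and Tekt5 at -1.99 among WT tumors, and these were called.

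Relatives and pathway partners of each member were examined in the same KO against WT fits. None of the paralogs passed the test in either tissue, with 20 of 27 tested in the oral and 18 in the pancreatic tumors by edgeR. An unadjusted p under 0.05 was found for 7 in each. Over all genes it was found for 7913 of 22342 in the oral and 3916 of 24653 in the pancreatic tumors. DESeq2 called 7 of the 44 related genes of all kinds in the oral tumors and 2 of 42 in the pancreatic, against 2 and 1 by edgeR. Over all genes DESeq2 called 2606 higher and 1399 lower of 22125 in the oral tumors. In the pancreatic tumors it called 394 higher and 717 lower of 24564. The median log2 fold change of the tested paralogs was -0.52 in the oral and -0.11 in the pancreatic tumors, against -0.00 and 0.02 over all genes.

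The values nearest to the threshold in each family follow, and none of them passed it. Ebf2, a relative of Ebf1 with a role in brown adipocyte precursors, stood at 1.67 (SE 0.46, edgeR adjusted p = 0.0519) in the oral and 0.57 (adjusted p = 0.626) in the pancreatic tumors. Ebf4 stood at -1.58 (adjusted p = 0.0787) and 0.94 (0.461), and Ebf3 at -2.64 (0.301) and 0.96 (0.317), with 111 CPM in 1 oral WT tumor against 4.52 CPM in the lowest. Fbxo27, both a paralog and the gene nearest to Fbxo17 on its left (17.466 kb), stood at -0.36 (adjusted p = 0.802) and -2.20 (0.101); Fbxo2, a glycoprotein-binding F-box protein of the same family, stood at -1.73 (0.0833) and -0.95 (0.586). Nup210, the pore protein itself, stood at 0.99 (0.170) and -0.60 (0.273). Of the acid phosphatases, Acp5, the osteoclast and macrophage enzyme, was furthest from 0 in the oral tumors (-0.94, adjusted p = 0.307). Of the ADP-ribosyltransferases, Art1, a muscle enzyme, reached 1.60 and 7.94 CPM in oral KO tumors, which also held the muscle genes, and 0.850 CPM or less elsewhere (oral log2 fold change 4.44, adjusted p = 0.110). Dhrs7b stood at -0.08 (0.852) and -0.38 (0.222). The 4 other tektins summed to 1.97 CPM or less in every tumor.

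Of the 12 genes of extracellular nucleotide hydrolysis and adenosine signaling, the route in which Acpp acts, 1 rose in the oral and none in the pancreatic KO tumors by edgeR. An unadjusted p under 0.05 was found for 4 and 3, to be read beside the counts over all genes given above. The median log2 fold change of the 12 genes was 0.57 and 0.42. The riser was Ada, adenosine deaminase, which removes adenosine. Ada was at 10.99, 15.6, 14.1 and 11.9 CPM in the oral WT and 57.7 and 118 CPM in the oral KO tumors (log2 fold change 2.81, SE 0.29, adjusted p = 0.0117). In the pancreas it was at 6.64, 10.5, 5.51 and 4.48 CPM in the WT and 5.96, 5.48 and 3.73 CPM in the KO tumors (-0.41, adjusted p = 0.590). The difference between the tissues passed the test in 1 edgeR fit of the 13 tumors (pancreatic minus oral -3.17, SE 0.47, adjusted p = 0.0055). That fit was not repeated with a tumor left out. Nt5e, the main ectonucleotidase that makes adenosine from AMP, stood at 0.67 (adjusted p = 0.222) and 1.37 (0.217), and Entpd1, which acts before it on ATP and ADP, at -0.67 (0.0645) and 0.57 (0.290). The adenosine receptor nearest to the threshold was Adora3 in the oral tumors (1.46, adjusted p = 0.0514).

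Each member has 2 nearest protein-coding neighbors, 14 genes in all, of which 13 were tested in each tissue. In the oral tumors 1 fell and none rose, and in the pancreatic tumors 1 rose and none fell. An unadjusted p under 0.05 was found for 7 and 4, again to be read beside the counts over all genes. The gene called in the oral tumors was Mrps12, a mitochondrial ribosomal protein 1.497 kb to the right of Fbxo17 on the other strand, at 21.2, 20.5, 18.2 and 21.8 CPM in the WT and 8.04 and 10.5 CPM in the KO tumors (-1.06, SE 0.23, edgeR adjusted p = 0.0309). Its call was lost without oral WT tumor 1 (adjusted p = 0.0755), oral WT tumor 2 (0.0884), oral KO tumor 1 (0.114) or oral KO tumor 2 (0.0924) and among protein-coding genes alone (-0.87, adjusted p = 0.0870), and over all alternatives its adjusted p ran from 0.00079 to 0.168. In the pancreas Mrps12 stood at 0.36 (adjusted p = 0.448). Near Tekt5, Emp2, an epithelial membrane protein 43.98 kb away, stood at -0.88 (SE 0.21, adjusted p = 0.0363), under the limit of 1, and at -0.91 (0.105). On the other side of Nup210l, Rps27, a ribosomal protein gene 0.474 kb away on the other strand, stood at -1.05 (adjusted p = 0.0737) and -0.75 (0.0582), opposite in sign to Nup210l.

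The gene called in the pancreatic tumors was Tpm3, a tropomyosin gene that ends 3.23 kb before Nup210l on the same strand. It was at 94.0, 96.8, 103 and 102 CPM in the pancreatic WT and 663, 567 and 580 CPM in the pancreatic KO tumors, without overlap (2.62, SE 0.11, edgeR adjusted p = 3.24e-05, and at most 0.0318 under any alternative). In the oral tumors it was at 236, 54.7, 68.5 and 64.0 CPM in the WT and 156 and 202 CPM in the KO tumors, which overlapped because of oral WT tumor 1, the tumor in which Nup210l also stood apart (0.84, SE 0.61, adjusted p = 0.359). Without that tumor the oral value was 1.60 (SE 0.22, adjusted p = 0.0505). Over the 13 tumors log2 CPM of Nup210l and Tpm3 correlated with r = 0.82, and their deviations from group means with r = 0.88, or 0.57 without oral WT tumor 1; both are given as descriptions of tumors that share genotype and library. Tpm3 exceeded Nup210l by 25.4 to 157 times in CPM (median 91.9), with the lowest ratios in the 2 oral KO tumors (25.4 and 31.4), so the pair did not keep 1 ratio. The libraries were counted with strand, which separates Nup210l from Rps27 but not from Tpm3, and no 31-base sequence of the Nup210l transcripts occurs in Tpm3. The oral KO tumors also held the muscle genes (2935 and 5055 CPM in sum), and the part of muscle in the oral Tpm3 values and ratios was not tested. Whether the levels of the pair depend on each other was not tested either.

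**Figure D4:**
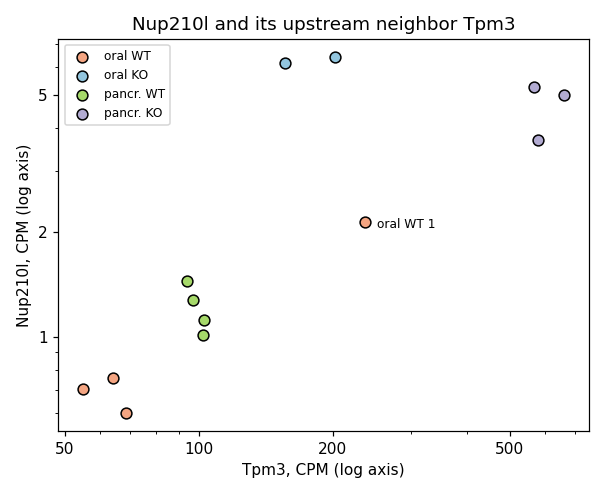
Level of Nup210l (CPM, log axis) and of Tpm3 (CPM, log axis) in each of the 13 tumors, colored by group. Oral WT tumor 1 is high in both genes (2.14 and 236 CPM), and the pancreatic KO tumors lie at 567 to 663 CPM of Tpm3 and 3.70 to 5.25 CPM of Nup210l.

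Within groups the members did not move as a block. Of the 21 pairs, deviations of log2 CPM from the group means over 13 tumors correlated with a median r of 0.02. The highest was that of Ebf1 with Nup210l (0.65, or 0.48 without oral WT tumor 1) and the lowest those of Art4 with Dhrs7 (-0.66, or -0.69 without that tumor) and of Ebf1 with Fbxo17 (-0.52). These values pool both tissues, and within a tissue some pairs had opposite signs. Dhrs7 with Nup210l stood at -0.83 in the oral and 0.93 in the pancreatic tumors, and Acpp with Tekt5 at -0.85 and 0.54. Others kept their sign, such as Art4 with Dhrs7 (-0.70 and -0.64) and Ebf1 with Nup210l (0.76 and 0.49). A median near 0 can thus hide opposite values. The tumors share library depth and tissue makeup, and no test was made.

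**Figure D5:**
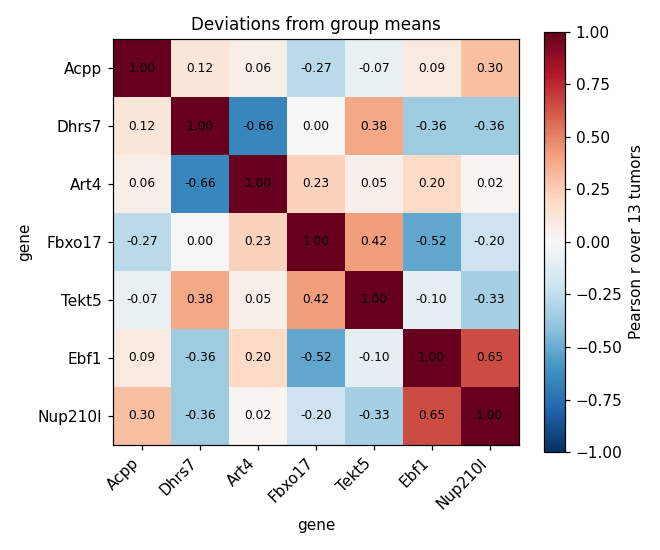
Pearson correlation between the 7 genes of the deviations of log2 CPM from group means, over 13 tumors. Color and number give r, which ranges from -0.66 (Art4 with Dhrs7) to 0.65 (Ebf1 with Nup210l) outside the diagonal.

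The 2 protein-coding genes most like each member over the 13 tumors were found among 14163 genes with a mean of at least 1 CPM, by Pearson r of log2 CPM, which follows tissue and genotype as much as the single tumors. They were Tyro3 (0.89) and Tmem41b (0.89) for Acpp, Zfp217 (0.93) and Dnajb3 (0.92) for Dhrs7, Fbln1 (0.91) and Slc46a1 (0.90) for Art4, and Mpdu1 (0.93) and Map10 (0.92) for Fbxo17. For Tekt5 they were Ilvbl (0.92) and Bcap29 (0.91), for Ebf1 Map3k12 (0.94) and Srek1 (0.94), and for Nup210l Pi16 (0.92) and Gm20518 (0.88). Of deviations from group means, these r were lower in all 14 cases, from 0.10 (Srek1 with Ebf1) to 0.86 (Slc46a1 with Art4). No other member was among the 2 genes most like a member.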

How the data were processed

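Bulk RNA-seq of 13 mNC tumors was analysed. The authors trimmed reads with Trim Galore 0.6.10, quantified them with kallisto 0.50.0 with strand from ribosomal RNA-depleted libraries on GENCODE M23 transcripts, and summed them per gene with tximport. The values the authors deposited are these estimated counts, without normalization (27.3% are not whole). The counts were rounded. Of 56085 rows 55332 have values, and 55141 identifiers were found in GENCODE M21. Groups came from the sample labels.

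Genes reaching 10 counts in 2 or more of the fitted tumors were tested with edgeR 4.0.16 in R 4.3.3 (TMM, robust quasi-likelihood, Benjamini-Hochberg over all genes tested) and called where the adjusted p was below 0.05 and the log2 fold change beyond 1 in size. CPM used TMM factors of all 13 tumors, with a prior count of 2 for log2 values. The interaction was tested in 1 fit. Alternatives were DESeq2 1.42.0, DESeq2 size factors, no filter, protein-coding genes alone, thinned counts, 1 fit of all tumors, tumor number as a block and leaving out each tumor; scaling to basal keratinocyte genes was added after the data were seen. The fits were also tested on simulated data.

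The members and gene lists were chosen with earlier results of these data known. Named genes are the members, Sox2, the fixed paralogs (Art2a was not found by symbol), pathway genes and nearest protein-coding neighbors, and the 2 genes most like each member; beyond the members, values are given for those past the test or nearest to it.

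The erythroid marker list is not reported here. Of the marker lists not given with a member, macrophage genes summed to 142 to 288 CPM in the oral WT, 63.6 and 91.4 in the oral KO, and 115 to 264 in the pancreatic tumors, with C1qa lower in the oral KO tumors. Suprabasal keratinocyte genes summed to 596 to 3368 CPM in the oral WT and 2161 and 5915 CPM in the oral KO tumors. In the pancreas they summed to 2776 to 5716 CPM in the WT and 379 to 656 CPM in the KO tumors, without overlap. Of the 6, 1 was called higher in oral KO and 2 lower in pancreatic KO tumors. Pancreatic acinar genes summed to 0.992 CPM or less in the oral and 3.94 to 204 in the pancreatic tumors with none called. Salivary gland genes summed to 1.98 to 52.1 CPM with none called. Of the basal keratinocyte genes none was called, and of the 6 skeletal muscle genes 1 was higher in oral KO tumors.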

Additional observations from a re-analysis of the deposited data

Results flagged for a closer look

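Among the 7 members, 14 groups of 4 WT tumors were examined for a tumor far from the rest, of which chance gives about 1 in 20. In 1 of them, Nup210l in the oral WT tumors, the gap of tumor 1 to its nearest neighbor was 0.898 of the range of the group (2.14 CPM against 0.602 to 0.758 CPM). Tpm3, the gene before Nup210l, was also highest in that tumor among the oral WT tumors (236 CPM).

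Of 107 related and marker genes, 13 changed differently with KO in the pancreas and in the oral mucosa, tested as an interaction in 1 edgeR fit of the 13 tumors. Relatives and neighbors of the members among them were Ada (pancreatic minus oral -3.17 on the log2 scale, adjusted p = 0.0055), Mrps12 (1.48, 0.0137), Entpd1 (1.31, 0.0245) and Ebf4 (2.59, 0.0431). Keratinocyte genes were Krt4 (-5.46, adjusted p = 0.00046), Krt13 (-5.14, 0.0037), Lor (-6.20, 0.0237) and Krt5 (1.33, 0.0234). Fibroblast and macrophage genes were Dcn (4.28, 0.0102), Lum (3.48, 0.0476) and C1qa (2.24, 0.0125). Muscle genes were Myh4 (-9.05, 0.0309) and Ckm (-4.45, 0.0467). No member was in this comparison as a test, since the rule that chose them used both of its sides. The share of all genes that passed this test is not given here, so the count of 13 has no background to be read against. The fit was not repeated with a tumor left out, and its oral side rests on 2 KO tumors.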

How the results depend on the processing

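The log2 fold changes of the members kept their sign under every alternative tried, in all 4 comparisons, and none was reversed. Those that crossed a threshold when 1 tumor was left out are given in the report. The count of members called between tissues was 2 among WT and 1 among KO tumors under every alternative that kept all tumors, and ranged from 1 to 4 and from 0 to 1 when each tumor was left out in turn. Of the 44 related genes tested in the oral tumors, 2 were called, 7 by DESeq2, 7 in 1 fit of all 13 tumors, 1 among protein-coding genes alone and 1 to 3 when a tumor was left out. Of those tested in the pancreatic tumors 1 was called, 2 by DESeq2. Leaving out an oral KO tumor leaves 1, assumed to vary like the WT tumors. All 7 members separated KO from WT; 6 did in the pancreas with DESeq2 size factors, with protein-coding genes alone and with thinned counts, and 6 in each tissue relative to basal keratinocyte genes, where Dhrs7 overlapped in the oral (-0.96) and Fbxo17 in the pancreatic tumors (-1.48). Without pancreatic KO tumor 1 Tekt5 moved to -3.18. Tekt5 had too few thinned counts for a value between KO tumors. Beyond what each setting removes, the cause was not tested. Depth limits Tekt5 and Nup210l most, with as few as 3 and 19 counts.

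Tumor numbers did not pair the samples: deviations of same-numbered tumors correlated between -0.10 and 0.33, and not every pair was over 0.1. With tumor number as a replicate block, 2 members were called among WT and 1 among KO tumors, 1 related gene in the oral and 2 in the pancreatic tumors. Over all genes it left 43 called higher and 22 lower in the oral tumors, against 1968 and 646, and 189 and 401 in the pancreatic tumors, against 83 and 72. DESeq2 called 2606 and 1399 in the oral tumors and 1 fit of all 13 tumors 3590 and 1492, and in the pancreatic tumors that fit called 55 and 37, and no filter gave 119 and 120. With the block Dhrs7 moved to -0.85 in the oral tumors.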
